A study of Mus musculus with 35 samples.

Results

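The genes described here encode ligands of αv integrins and matricellular proteins, secreted proteins that sit in the extracellular matrix and signal to cells rather than build fibres. They were fibronectin (Fn1), vitronectin (Vtn), osteopontin (Spp1), transforming growth factor beta induced protein (Tgfbi), thrombospondin 1 and 2 (Thbs1 and Thbs2), tenascin-C (Tnc), periostin (Postn) and Sparc. The 9 genes were chosen by name, as the row of each symbol with the largest total, out of 22830 gene symbols in a first count table and 22831 in a second. RNA was sequenced from 35 skin wounds of mice in 8 groups. The question was how RNA for the proteins that αv integrins bind differs in wounds of a mouse model of classical Ehlers-Danlos syndrome, and after 2 treatments of that model.

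Col5a1CKO (CKO) mice carry Col1a2CreERT, a tamoxifen-inducible Cre under a type I collagen enhancer that is active in fibroblasts, and 2 floxed Col5a1 alleles (Col5a1 fl/fl). WT mice are Cre-negative Col5a1 fl/fl littermates, so that floxed alleles, tamoxifen and the excisional wound of the back skin are shared by all groups. Mice of both sexes were 8 to 12 weeks old by the methods of the study. The first table holds 7 WT and 7 CKO wounds at day 14, 3 CKO wounds at day 14 whose bed had been injected at day 3 with WT skin fibroblasts (CKO+fibro), and 3 WT and 3 CKO wounds at day 19. Legends of the study describe day 14 groups of 7 WT and 7 CKO mice as given vehicle. Its methods name PBS alone as the control for fibroblast injection, while the sample titles name no vehicle. The second table holds 4 WT and 4 CKO wounds of vehicle-treated mice and 4 CKO wounds of mice given cilengitide, a cyclic peptide that mimics the Arg-Gly-Asp motif and blocks αvβ3 and αvβ5 integrins. The sample titles place the injected fibroblasts in the day 14 group and were followed, although a treatment label names them on the 3 day 19 CKO wounds. Cilengitide wounds carry no day in their own labels, and the series gives day 14 for that experiment. The methods describe replicates as biologically separate, and the labels say nothing of shared litters or cages.

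αv integrins are cell surface receptors that hold on to Arg-Gly-Asp (RGD) motifs in matrix proteins, and cells use them to spread, to migrate over the provisional matrix of a wound and to release active TGF-β from its latent complex. Matricellular proteins are made at high levels in developing and injured tissue and fall again as a wound matures. Among the genes here, fibronectin, vitronectin and osteopontin are classical RGD ligands. Periostin, Tgfbi and tenascin-C bind αv integrins too, partly through other sequences, thrombospondins bind CD36, CD47 and integrins, and Sparc is mainly a collagen-binding protein.

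In the GENCODE M1 transcripts of mouse build NCBI37, the transcript of each gene closest in length to the counted one was searched for in-frame RGD codons. These codons were found in 6 of the 9 genes. Of the 21370 genes with a complete coding sequence 7.13% held them, searched in the longest coding sequence of each gene. The 9 genes were named as αv ligands or matricellular proteins, so setting these shares side by side is no test. Tnc, Postn and Sparc held none. The sequences are shown because cilengitide mimics this motif. Each runs 5′ to 3′ on the coding strand, with the 9 bases that code for Arg-Gly-Asp in capitals.
Fn1, first: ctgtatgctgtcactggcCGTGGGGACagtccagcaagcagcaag
Fn1, second: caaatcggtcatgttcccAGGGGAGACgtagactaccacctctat
Vtn: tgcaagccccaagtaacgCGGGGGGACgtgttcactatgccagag
Spp1: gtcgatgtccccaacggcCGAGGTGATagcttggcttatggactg
Thbs1: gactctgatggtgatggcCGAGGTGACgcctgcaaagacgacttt
Thbs2: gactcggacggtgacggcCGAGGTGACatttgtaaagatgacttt
Tgfbi: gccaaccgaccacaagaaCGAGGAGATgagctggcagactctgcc
The Fn1 motifs begin at codons 1614 and 2181, in exons 30 and 40 of 46 (chr1:71653320-71653328 and chr1:71644017-71644025, minus strand). The Vtn motif begins at codon 64 in exon 3 of 8 (chr11:78313208-78313216, plus strand). The Spp1 motif begins at codon 144 in exon 6 of 7 (chr5:104868500-104868508, plus strand). Thbs1 and Thbs2 hold theirs in the same place, at codons 927 and 928 in exon 18 of 22 (chr2:117948618-117948626, plus strand, and chr17:14808491-14808499, minus strand). The Tgfbi motif begins at codon 642 in exon 15 of 17 (chr13:56738516-56738524, plus strand). The genes without the motif are Tnc (chr4:63620819-63681760, minus strand), Postn (chr3:54165031-54194961, plus strand) and Sparc (chr11:55208002-55233582, minus strand).

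The first table had 15043531 to 35700325 counts a library, the second 51211643 to 68266808. Levels are given as CPM, counts scaled to a common library size by TMM. In the first table the difference between GC-rich and GC-poor genes parted the libraries at a gap of 1.54 on the log2 scale, where the next widest gap was 0.40. The lower set holds WT day 14 wounds a to d and CKO day 14 wounds a to e. The upper set holds the other 3 WT and 2 CKO day 14 wounds and all CKO+fibro and day 19 wounds, so day and fibroblast injection cannot be told apart from the set except within the upper one. In the second table the widest gap was 0.22 and no sets were made. At day 14 the 3 upper-set WT wounds held Y-linked RNA and the 2 upper-set CKO wounds and the 3 CKO+fibro wounds held Xist RNA, so that sex and group cannot be told apart there. Of the CKO vehicle wounds 3 held Y-linked RNA, and 1 (replicate 2) held neither above 1 CPM. WT vehicle and cilengitide wounds each had 2 with Xist and 2 with Y-linked RNA. At day 19 all 3 CKO wounds held Xist RNA, and the WT wounds were 2 with Xist and 1 with Y-linked RNA. The part of sex in the comparisons was not tested. RNA of Col5a1, the targeted gene, ranged from 345.0 to 2404 CPM in WT day 14 wounds and from 171.5 to 667.4 in CKO day 14 wounds, with a log2 fold change of -1.43 ± 0.49 (SE; adjusted p = 0.0757). At day 19 the change was -1.70 ± 0.87 (adjusted p = 0.272) and under vehicle -1.17 ± 0.76 (adjusted p = 0.232). The target was thus lower by its estimate in each experiment and passed the threshold in none. At day 14 the genotypes did not overlap in the lower library set. Col5a1 was there at 851.2 to 2404 CPM in WT and 171.5 to 667.4 in CKO wounds. The genotypes overlapped in the upper set, at 345.0 to 377.9 CPM in WT wounds and 351.2 and 229.4 in CKO wounds. The count covers all exons, also those outside the floxed part. The study reports a decrease of this gene in CKO skin by qPCR and by RNA sequencing.

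Compared per kilobase of transcript, which can be done in the first table, Postn and Sparc were the most abundant members in every group. Median levels in CKO day 14 wounds were 5590 CPM per kb for Postn and 3729 for Sparc. Spp1 followed at 1062, then Tnc at 600.2, Tgfbi at 416.0, Thbs2 at 413.1, Fn1 at 317.9 and Thbs1 at 310.0. Vtn, a plasma protein that the liver makes, stood at 2.04 CPM per kb, and the summed level of the hepatocyte markers Alb, Apoa1, Ttr and Serpina1a was at most 18.9 CPM in any WT day 14 wound and 11.5 in any CKO day 14 wound. In WT day 14 wounds the order of medians began in the same way, with Postn at 2847 CPM per kb and Sparc at 2771, and Thbs1 (24.2) and Tnc (46.8) stood lower than Fn1 (109.5). Postn stood above Sparc in every wound of the lower library set, and Sparc above Postn in every upper-set wound of day 14. In WT wounds of the upper set Sparc was at 604.7 to 716.4 CPM per kb and Postn at 251.3 to 312.9. Sparc also had the higher median in the CKO+fibro and day 19 groups, which lie in the upper set. The wounds of each group span wide ranges in the plot of the first table, and neighbours in this order, such as Tgfbi, Thbs2, Fn1 and Thbs1 in CKO wounds, overlap.

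**Figure D1:**
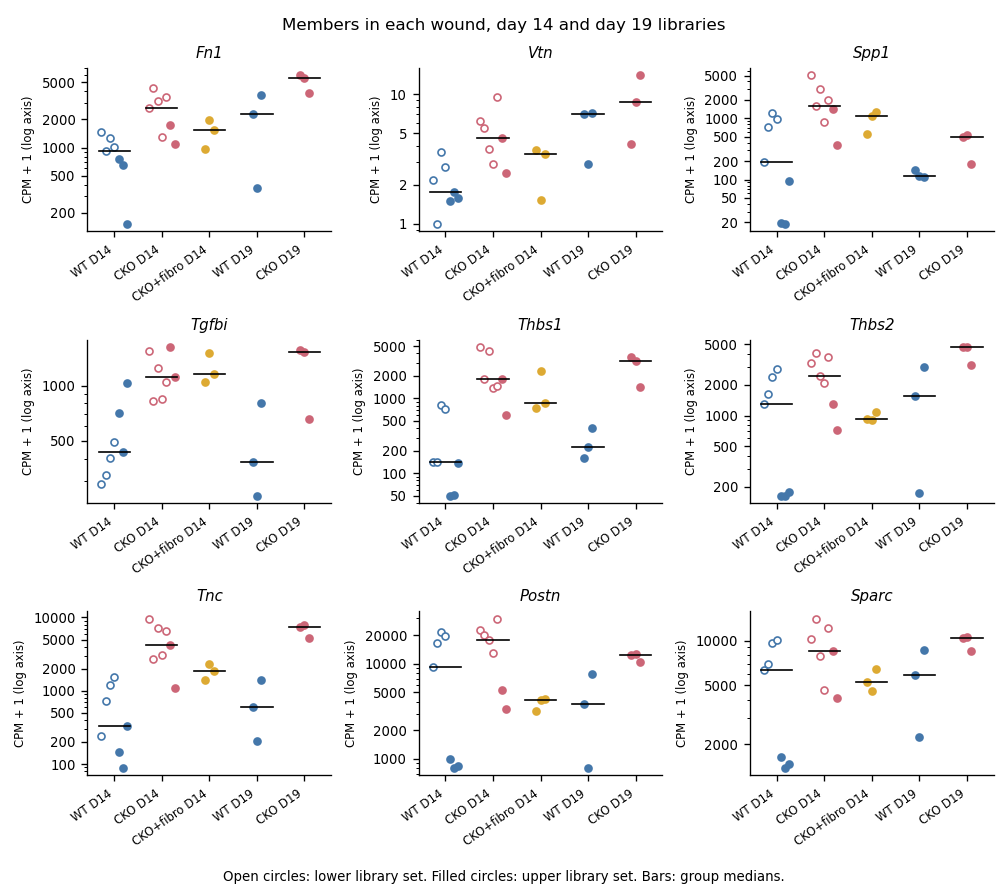
Level of each gene in each wound of the first table, as TMM-scaled CPM plus 1 on a log axis, by group; open circles are the lower library set, filled circles the upper set, bars the medians. WT day 14 wounds of the upper set lie far below those of the lower set for Postn, Thbs2 and Sparc, while for Tnc and Thbs1 the CKO medians of 4262 and 1799 CPM stand above every WT day 14 wound.

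At day 14, 4 of the 9 genes rose in CKO wounds: Tnc, Thbs1, Fn1 and Tgfbi. Called here means an adjusted p under 0.05 over all genes tested (edgeR quasi-likelihood test, Benjamini-Hochberg) with at least a 2-fold change. Of the 14367 genes tested, 5.57% were called higher and 2.71% lower. None of the 9 genes fell, every estimate was above 0, and the median log2 fold change of the 9 was 1.50 against -0.03 over all genes. DESeq2 called 6 members higher, these 4 with Spp1 and Vtn, and 8.24% of its genes. In no member did the 2 groups separate completely, where 2.31% of genes did so with CKO higher. All 9 genes passed the filter on low counts in this and every other comparison.

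Tnc is a large matrix glycoprotein that is nearly absent from resting skin and appears at wound edges. It ranged from 88.0 to 1543 CPM (median 332.1) in WT wounds and from 1100 to 9555 (median 4262) in CKO wounds, so that the lowest CKO wound lay within the WT range and the other 6 above it. Its log2 fold change was 3.01 ± 0.67 (SE, n = 7 and 7; adjusted p = 0.0135), and it was 2.65 within the lower set (adjusted p = 0.0257) and 3.91 within the upper set (adjusted p = 0.0593). Thbs1, which platelets carry and which can activate latent TGF-β, ranged from 48.8 to 804.9 CPM (median 140.4) in WT and from 595.4 to 4871 (median 1799) in CKO wounds. Only the lowest CKO wound lay within the WT range. The log2 fold change was 2.98 ± 0.72 (adjusted p = 0.0189), with 2.61 within the lower set (adjusted p = 0.0541) and 4.02 within the upper (adjusted p = 0.0466).

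Fn1, the main adhesive protein of the provisional matrix, ranged from 151.6 to 1469 CPM (median 910.4) in WT and from 1098 to 4347 (median 2643) in CKO wounds. Its log2 fold change was 1.50 ± 0.45 (adjusted p = 0.0432), a call that is lost on leaving out any 1 of 9 of the 14 libraries (WT b, d, e and f and CKO a, b, c, e and f, adjusted p between 0.0613 and 0.0943). Within the lower set, Fn1 rose by 1.34 (adjusted p = 0.0288). Tgfbi, an RGD-bearing protein induced by TGF-β, ranged from 288.8 to 1031 CPM (median 434.4) in WT and from 825.0 to 1625 (median 1114) in CKO wounds. It rose by 1.18 ± 0.30 (adjusted p = 0.0245), and by 1.54 within the lower set (adjusted p = 0.00724). Within the upper set the Fn1 and Tgfbi estimates were 1.56 and 1.01, with adjusted p of 0.186 and 0.189. Without CKO a or CKO f both Fn1 and Tgfbi lost their calls, and 2 of the 9 genes remained called.

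Spp1, a phosphoprotein that macrophages and bone cells secrete, had the widest spread. It ranged from 17.9 to 1240 CPM (median 190.7) in WT wounds and from 367.9 to 5097 (median 1566) in CKO wounds. The log2 fold change of 2.14 ± 0.88 did not pass in the edgeR test of the 2 groups (adjusted p = 0.133). It passed with DESeq2 (2.16, adjusted p = 0.0424) and with all groups of the table in 1 edgeR fit (2.15, adjusted p = 0.0490). In a fit that also held a term for the library set, 6 members were called, Spp1 (2.65 ± 0.71, adjusted p = 0.0185) and Thbs2 in addition to the 4, and 9.04% of genes were called higher. Vtn was counted at 0 to 2.57 CPM in WT and 1.49 to 8.54 in CKO wounds, a log2 fold change of 1.93 ± 0.74 that did not pass with edgeR (adjusted p = 0.109) and passed with DESeq2 (1.97, adjusted p = 0.0130) and with all groups in 1 edgeR fit (1.94, adjusted p = 0.0421).

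Thbs2, Postn and Sparc, which organise collagen fibres, stood apart between the library sets of WT wounds, as did Spp1, Fn1 and Thbs1. In WT wounds Fn1 was at 910.4 to 1469 CPM in the lower set and 151.6 to 756.5 in the upper. Thbs1 was at 140.4 to 804.9 against 48.8 to 137.0. In WT wounds Postn stood at 9151 to 21330 CPM in the lower set and at 807.7 to 1006 in the upper one, and Thbs2 at 1309 to 2892 against 162.5 to 176.4. Sparc stood at 6370 to 10070 in the lower and 1390 to 1647 in the upper set of WT wounds. In CKO wounds Postn was 12900 to 29600 CPM in the lower set and 5284 and 3380 in the 2 upper-set wounds. In the edgeR test of the 2 groups over all libraries none of the 3 passed, with log2 fold changes of 1.01 ± 0.67 for Thbs2 (adjusted p = 0.350), 0.67 ± 0.79 for Postn (adjusted p = 0.618) and 0.70 ± 0.53 for Sparc (adjusted p = 0.417). With the term for the library set Thbs2 was called (1.33 ± 0.35, adjusted p = 0.0164), and Postn, at 1.03 ± 0.37, had an adjusted p of 0.0550. Within the lower set they were 0.60, 0.30 and 0.22 and none passed. Within the upper set Thbs2 rose by 2.69 ± 0.33 (n = 2 and 3; adjusted p = 0.0369) and Postn by 2.39 ± 0.42 (adjusted p = 0.0422), while Sparc, at 2.17 ± 0.53, had an adjusted p of 0.0638. Over all members, 3 were called within the lower set, where 3.68% of genes were called higher, and 3 within the upper set, where 8.82% were. Whether the change differs between the sets was not tested.

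**Figure D2:**
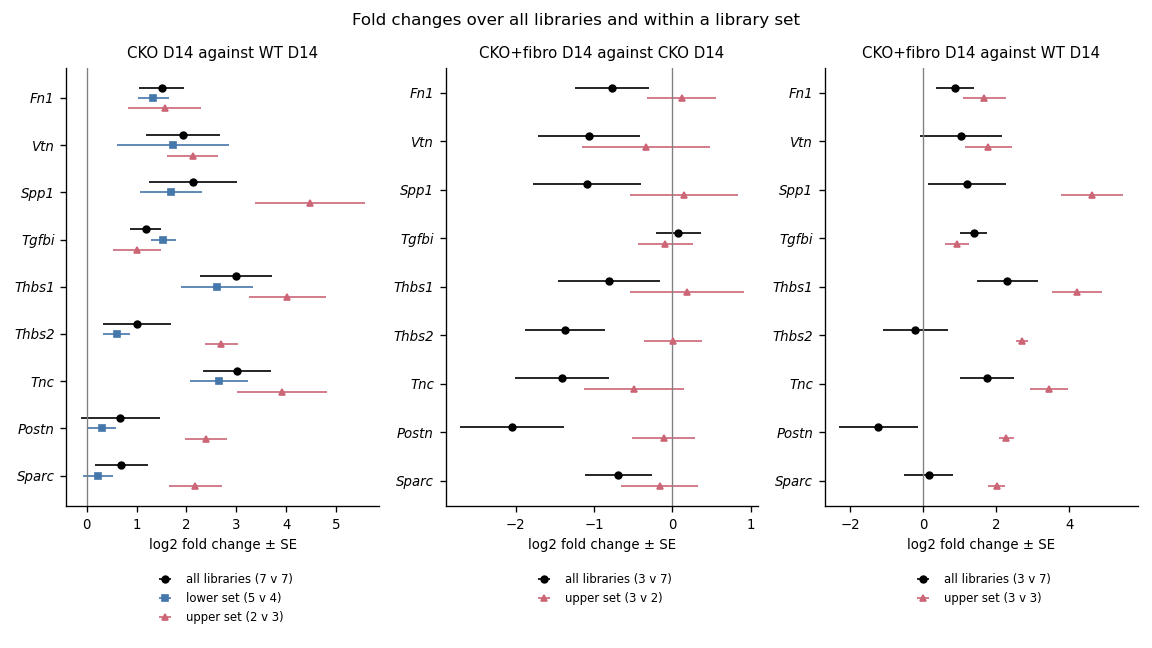
Log2 fold change (horizontal axis, bars are SE) of each gene for CKO against WT at day 14 and for CKO+fibro against CKO and against WT, over all libraries (circles) and within the lower (squares) or upper (triangles) library set. For CKO+fibro against CKO every estimate within the upper set lies between -0.49 and 0.19, and for CKO+fibro against WT the Postn estimate moves from -1.23 to 2.28.

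Of 15 other αv integrin ligands in the table, 10 were tested at day 14 and 3 rose: Tgfb1, whose latent form is bound by αv integrins (1.53 ± 0.43, adjusted p = 0.0358), Vwf (1.40, adjusted p = 0.0203) and Tgfb3 (1.04, adjusted p = 0.0489). Of 19 other matricellular genes, 15 were tested and 3 rose. These were Tnn, the tenascin-W gene (2.66 ± 0.70, adjusted p = 0.0276), Ctgf (2.33 ± 0.51, adjusted p = 0.0122) and Cyr61 (1.55 ± 0.37, adjusted p = 0.0169). Of 16 receptors of the 9 proteins, 4 rose, and the largest changes were those of Itga5, the α subunit of the fibronectin receptor (1.90 ± 0.30, adjusted p = 0.00421), Itga9 (1.70, adjusted p = 0.00837) and Itgb3, the partner of αv in αvβ3 (1.52 ± 0.34, adjusted p = 0.0133). No gene of these lists fell.

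Markers of several cell types moved in the same comparison. Called higher were 4 of 8 macrophage and monocyte markers (Itgam most, 2.55), 2 of 4 neutrophil markers (Csf3r, 3.50), 3 of 8 fibroblast markers (Pdgfra, 2.36), 3 of 4 myofibroblast and smooth muscle markers (Cnn1, 3.24), 3 of 4 endothelial markers (Cdh5, 1.63) and 1 of 3 tested platelet markers (Ppbp, 4.88). None of the keratinocyte, skeletal muscle, adipocyte or hepatocyte markers tested was called. The summed macrophage markers ranged from 516.2 to 3450 CPM in WT and from 2117 to 6447 in CKO wounds, the fibroblast markers from 8577 to 84940 and from 31780 to 129200, and the keratinocyte markers from 39690 to 166500 and from 40.7 to 75640. The part of these in the changes of the 9 genes was not tested. In RNA of whole tissue, fewer cells of a type and less RNA per cell cannot be told apart.

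At day 19, with 3 wounds a genotype, no member was called with edgeR, although every estimate was again above 0 and the median was 1.43 against -0.01 over all genes. The share of genes called higher was 0.0198%, 3 of 15135. At an unadjusted p under 0.05 stood 3 of the 9 genes, against 24.1% of all genes, and DESeq2 called 3 higher, Thbs1, Tnc and Spp1, against 3.73% of its genes. The genotypes did not overlap in 6 of the 9 genes, where 16.4% of all genes separated with CKO higher. Thbs1 was at 157.3, 225.1 and 402.4 CPM in the WT wounds and at 3583, 3203 and 1434 in the CKO wounds, a log2 fold change of 3.45 ± 0.61 (adjusted p = 0.110). Tnc was at 603.1, 206.4 and 1384 in WT and at 7414, 7848 and 5270 in CKO wounds, a log2 fold change of 3.26 ± 0.83 (adjusted p = 0.131). Both pass on leaving out WT wound c, with adjusted p of 0.0405 and 0.0464. Spp1 was low in both genotypes, at 108.4 to 141.6 CPM in WT and 177.9 to 541.6 in CKO wounds (1.82 ± 0.46, adjusted p = 0.131).

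Of the other genes at day 19, Fn1 was at 2283, 366.6 and 3613 CPM in WT and 5948, 5537 and 3847 in CKO wounds, and Postn at 3817, 807.9 and 7856 in WT and 12410, 12690 and 10340 in CKO wounds. WT wound b was the lowest of the 3 for Tnc, Fn1, Postn, Thbs2, Sparc, Tgfbi and Vtn. The Tgfbi, Sparc and Vtn ranges overlapped between genotypes. Of the other αv ligands, matricellular genes and receptors none was called. Of the marker lists, 1 gene passed, Cnn1 (3.97), while the summed macrophage markers overlapped, at 303.0 to 4435 CPM in WT and 613.9 to 2808 in CKO wounds. The test of whether the genotype difference changed between the days called 0 of 15954 genes with edgeR (938 at an unadjusted p under 0.05; 26 higher and 19 lower with DESeq2) and no member reached an unadjusted p under 0.05, with estimates from -1.16 for Vtn to 0.85 for Postn.

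Between day 14 and day 19 no member was called in either genotype (edgeR). In CKO wounds the share of genes called lower at day 19 was 3.85% and that called higher 1.87%. Spp1 had the largest estimate, -2.35 ± 0.77 (adjusted p = 0.0830), from a median of 1566 CPM at day 14 to 500.8 at day 19. DESeq2 called it, as did edgeR without CKO day 14 wound g, which lies in the upper library set. Within that set alone the Spp1 estimate was -1.12 ± 0.785 (3 wounds against 2, adjusted p = 0.433 with edgeR). At an unadjusted p under 0.05 stood 2 of the 9 genes, a share no larger than the 27.1% over all genes. The other estimates in CKO wounds were 1.01 ± 0.42 for Fn1, 0.98 for Vtn, 0.71 for Thbs2, 0.47 for Tnc, 0.23 for Thbs1, 0.16 for Sparc, 0.07 for Tgfbi and -0.45 for Postn. In WT wounds 1.5% of genes were called higher and 4.25% lower, and no member had an unadjusted p under 0.05 or was called by DESeq2. The WT estimates ran from -1.95 ± 1.26 for Spp1 and -1.21 for Postn, through -0.15 for Thbs1, -0.05 for Tgfbi, 0.08 for Sparc, 0.30 for Tnc and 0.38 for Thbs2, to 1.30 for Fn1 and 2.23 ± 1.07 for Vtn. The day 19 wounds all lie in the upper library set. Within that set 4 genes rose in WT wounds, where 14.2% of all genes were called higher. They were Vtn, which rose by 3.09 ± 0.58 (adjusted p = 0.0135), Thbs2 by 3.42 ± 0.98 (adjusted p = 0.0404), Sparc by 2.06 ± 0.56 (adjusted p = 0.0353) and Thbs1 by 1.88 ± 0.57 (adjusted p = 0.0462), with 3 wounds a day. In CKO wounds of the upper set, 3 against 2, none passed, with Thbs2 at 2.08 ± 0.47 (adjusted p = 0.107) and Fn1 at 1.88 ± 0.44 (adjusted p = 0.110). Of the related genes Vwf was called higher at day 19 in WT (2.51) and in CKO wounds (2.07), and Thbs4 (2.86), Ctgf (2.65) and Cyr61 (1.57) in CKO wounds.

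Injection of WT fibroblasts into CKO wounds was followed by no called change in any member at day 14, and no gene of the 15659 tested was called in either direction (edgeR). At an unadjusted p under 0.05 stood 3 members and 2001 genes (12.8%), and DESeq2 called no member, 9 genes higher and 10 lower. Over all libraries 8 of the 9 estimates were below 0, with Postn at -2.05 ± 0.66, Tnc at -1.41 ± 0.60 and Thbs2 at -1.37 ± 0.51 (adjusted p = 0.365, 0.376 and 0.365). Spp1 was at -1.09, Vtn at -1.06, Thbs1 at -0.81, Fn1 at -0.77, Sparc at -0.69 and Tgfbi at 0.07. The 3 injected wounds all lie in the upper set and 5 of the 7 CKO wounds in the lower. Postn was at 3183, 4136 and 4262 CPM in the injected wounds, at 5284 and 3380 in the 2 CKO wounds of the upper set, and at 12900 to 29600 in those of the lower set. Tnc was at 1403, 2308 and 1853 in the injected wounds and at 4262 and 1100 in the CKO wounds of the upper set. Within that set, with 3 wounds against 2, the estimates were -0.11 ± 0.40 for Postn, 0.01 ± 0.37 for Thbs2, -0.49 ± 0.64 for Tnc, 0.15 ± 0.69 for Spp1, 0.19 ± 0.73 for Thbs1, 0.12 ± 0.44 for Fn1, -0.16 ± 0.49 for Sparc, -0.33 ± 0.82 for Vtn and -0.09 ± 0.35 for Tgfbi. The SEs leave changes of 2-fold in several genes within reach, so these values do not show that the groups are alike. No other αv ligand, matricellular gene, receptor or cell type marker was called.

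Against WT wounds, the injected CKO wounds showed no called member over all libraries (edgeR, where 3.77% of genes were called higher and 2.06% lower). At an unadjusted p under 0.05 stood 3 members, against 22.3% of all genes, and DESeq2 called 1 higher, Tgfbi, against 5.03% of its genes. Fn1 was at 0.88 and Vtn at 1.03 on the log2 scale. Tgfbi was at 1044, 1512 and 1163 CPM in the injected wounds, all above the WT range of 288.8 to 1031, with a log2 fold change of 1.38 ± 0.37 (adjusted p = 0.0519). The share of genes that separated with the injected wounds higher was 9.91%. Within the upper set 6 of the 9 genes rose, in a fit that called 19.8% of all genes higher. Spp1 was at 559.4, 1072 and 1269 CPM in the injected wounds and at 18.8, 17.9 and 93.0 in the WT wounds of that set (4.62 ± 0.85, adjusted p = 0.00689). Thbs1 was higher by 4.21 ± 0.68 (adjusted p = 0.00334), Tnc by 3.44 ± 0.53 (adjusted p = 0.00237), Thbs2 by 2.70 ± 0.17, Postn by 2.28 ± 0.21 and Sparc by 2.01 ± 0.23 (adjusted p = 0.000207, 0.000445 and 0.000727). The 3 letters shared by both groups met the correlation rule described with the processing, with 2 of 3 wounds best with their own letter. The sample titles do not say that letters mark pairs. With the letter as a replicate block, which sets 3 upper-set injected wounds against 3 lower-set WT wounds, Tgfbi (1.83) and Tnc (1.58) were called higher and Postn (-1.98, adjusted p = 0.0028) lower, in a fit that called 9.98% of genes higher and 11.8% lower. The direction of the Postn call thus turned between the block and the upper set. Macrophage markers were called higher in 4 of 8 (Itgam, 2.37), neutrophil markers in 2 of 4 (Csf3r, 4.46) and endothelial markers in 2 of 4 (Kdr, 1.93) in this comparison over all libraries. Their part in the values was not tested. Tgfb1 (2.46), Vwf (1.75) and the receptor Itga5 (1.98) were the related genes called, all higher.

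**Figure D3:**
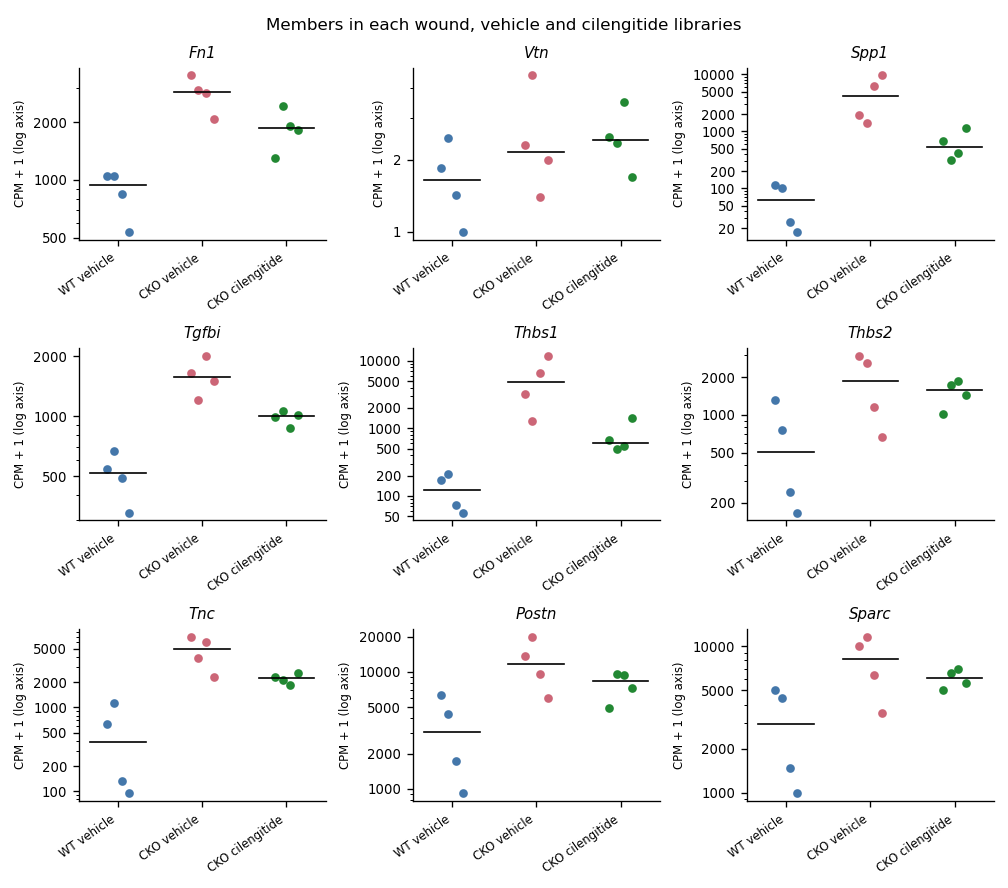
Level of each gene in each wound of the second table, as TMM-scaled CPM plus 1 on a log axis, for WT vehicle, CKO vehicle and CKO cilengitide (4 wounds each, bars are medians). All 4 CKO vehicle wounds stand above all 4 WT vehicle wounds for Fn1, Spp1, Tgfbi, Thbs1 and Tnc, and the cilengitide wounds stand between or overlap one of them.

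In the second table, 5 of the 9 genes rose in CKO vehicle wounds over WT vehicle wounds, Spp1, Thbs1, Tnc, Fn1 and Tgfbi, and none fell. This comparison called many genes, 17.5% of 15435 higher and 13.4% lower. The 5 genes were also those in which the 4 CKO wounds stood apart from the 4 WT wounds, where 24.1% of all genes separated with CKO higher. The median over the 9 genes was 1.66 against 0.02 over all genes.

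Spp1 was at 112.4, 98.8, 25.2 and 16.3 CPM in the WT vehicle wounds and at 1924, 1418, 6303 and 9605 in the CKO vehicle wounds. The groups stood far apart, and the log2 fold change was 6.20 ± 1.05 (adjusted p = 0.00288). Thbs1 was at 172.2, 208.9, 73.2 and 55.6 CPM in WT and at 3238, 1267, 6479 and 11660 in CKO wounds, a log2 fold change of 5.42 ± 0.88 (adjusted p = 0.00248). In both genes replicates 3 and 4 were the highest CKO wounds and replicate 2 the lowest. Tnc was at 642.1, 1132, 133.5 and 93.5 CPM in WT and at 6912, 3853, 6007 and 2323 in CKO wounds (3.21 ± 0.89, adjusted p = 0.0198).

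Fn1 was at 1043, 1052, 842.8 and 536.4 CPM in WT and at 3497, 2928, 2830 and 2069 in CKO wounds (1.66 ± 0.34, adjusted p = 0.00579). Tgfbi was at 542.8, 665.4, 489.2 and 326.2 in WT and at 1642, 1209, 2003 and 1511 in CKO wounds (1.61 ± 0.30, adjusted p = 0.00425). These 2 genes varied less between wounds of a group than Spp1 or Thbs1. The genes of collagen organisation did not pass with edgeR, with Postn at 1.84 ± 0.74 (adjusted p = 0.0701), Thbs2 at 1.52 ± 0.77 (adjusted p = 0.135) and Sparc at 1.37 ± 0.68 (adjusted p = 0.129). DESeq2 called 7 members, with Postn (1.87, adjusted p = 0.00861) and Sparc (1.40, adjusted p = 0.0448) added, and 18% of its genes higher, and all groups in 1 edgeR fit added Postn (adjusted p = 0.0238). Postn was at 6345, 4367, 1723 and 914.6 CPM in WT and at 13690, 19800, 9527 and 5924 in CKO wounds, and the lowest CKO wound overlaps the highest WT wound. Vtn was at 0 to 1.47 CPM in WT and 0.395 to 3.52 in CKO wounds (1.14 ± 1.14, adjusted p = 0.431). Leaving out any 1 wound kept all 5 calls.

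The order of the wounds differed between these genes. CKO vehicle wounds 3 and 4 had the highest Spp1 and Thbs1 and the lowest Sparc, at 6373 and 3492 CPM against 10030 and 11570 in wounds 1 and 2, and wound 4 had the lowest Thbs2 of the group at 662.9 CPM. The ratio of Thbs1 to its paralog Thbs2 within a wound, which does not depend on the scaling of the library, ran from 0.130 to 0.334 in WT vehicle, from 0.489 to 17.6 in CKO vehicle and from 0.283 to 0.986 in CKO cilengitide wounds. The ratio of Spp1 to Sparc ran from 0.0165 to 0.0224, from 0.123 to 2.75 and from 0.0475 to 0.203 in the same order. At day 14 in the first table the Thbs1 to Thbs2 ratio ran from 0.0871 to 0.777 in WT and from 0.388 to 1.78 in CKO wounds. It ran from 0.8 to 2.58 in CKO+fibro wounds. At day 19 it ran from 0.102 to 1.3 in WT and from 0.458 to 0.761 in CKO wounds, so the highest WT wound stood above every CKO wound there. These ratios were chosen after the values were seen and carry no test.

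Cilengitide blocks the integrins that many of these proteins bind, and the comparison asks how their own RNA stands in treated CKO wounds. Against CKO vehicle, 2 of the 9 genes fell, Spp1 and Thbs1, and none rose. The share of genes called lower was 6.59% and that called higher 6.48%. Spp1 was at 671.6, 311.7, 409.0 and 1146 CPM in the cilengitide wounds, all below the CKO vehicle range of 1418 to 9605, and fell by 2.92 ± 0.75 on the log2 scale (adjusted p = 0.0272). Thbs1 was at 678.8, 491.6, 545.0 and 1423 CPM, of which the last lies above the lowest vehicle wound, and fell by 2.85 ± 0.73 (adjusted p = 0.0269). Both calls are lost without CKO vehicle wound 3 or without cilengitide wound 1, 2 or 3 (adjusted p between 0.0629 and 0.0772), with log2 fold changes from -2.89 to -2.61.

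All 9 estimates were below 0, with a median of -0.64 against -0.06 over all genes. Groups did not overlap in 2 genes, Spp1 and Tgfbi, where 13.4% of all genes separated with cilengitide lower. Tgfbi was at 985.3, 1061, 869.4 and 1011 CPM in the cilengitide wounds, a log2 fold change of -0.69 ± 0.23 (adjusted p = 0.0585). Tnc was at 2303, 2131, 1838 and 2601 CPM, with 3 of the 4 below every vehicle wound (-1.10 ± 0.38, adjusted p = 0.0696 with edgeR). DESeq2 called Tnc lower as well (-1.09, adjusted p = 0.0112), for 3 members in all, against 7.95% of its genes. Fn1 had an estimate of -0.59 ± 0.29 (adjusted p = 0.159), Postn of -0.64 ± 0.46, Sparc of -0.37 ± 0.42, Thbs2 of -0.27 ± 0.48 and Vtn of -0.04 ± 0.66, and none of these passed with edgeR or DESeq2.

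Against WT vehicle, cilengitide-treated CKO wounds still had 3 genes called higher, Spp1 (3.33 ± 0.74, adjusted p = 0.0255), Thbs1 (2.62 ± 0.53, adjusted p = 0.0217) and Fn1 (1.10 ± 0.25, adjusted p = 0.0262). Of all genes 5.15% were called higher and 3.43% lower. The lowest treated wound was above the highest WT wound in 5 genes, these 3, Tgfbi and Tnc, where 14.5% of all genes separated with CKO higher. Tgfbi had an adjusted p of 0.0219 at a change of 0.96 ± 0.20, under the 2-fold limit, and Tnc a change of 2.15 ± 0.75 (adjusted p = 0.0725 with edgeR, and called with DESeq2 at 2.16, adjusted p = 0.00511). Postn was at 1.22, Thbs2 at 1.28, Vtn at 1.14 and Sparc at 1.02, and none of these 4 passed with either tool. The count falls to 0 without WT vehicle wound 3 or cilengitide wound 2, 3 or 4 and is 5 without WT vehicle wound 2. The 3 comparisons of this experiment share their groups, so the fold changes in the plot of the cilengitide experiment are not independent of each other.

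**Figure D4:**
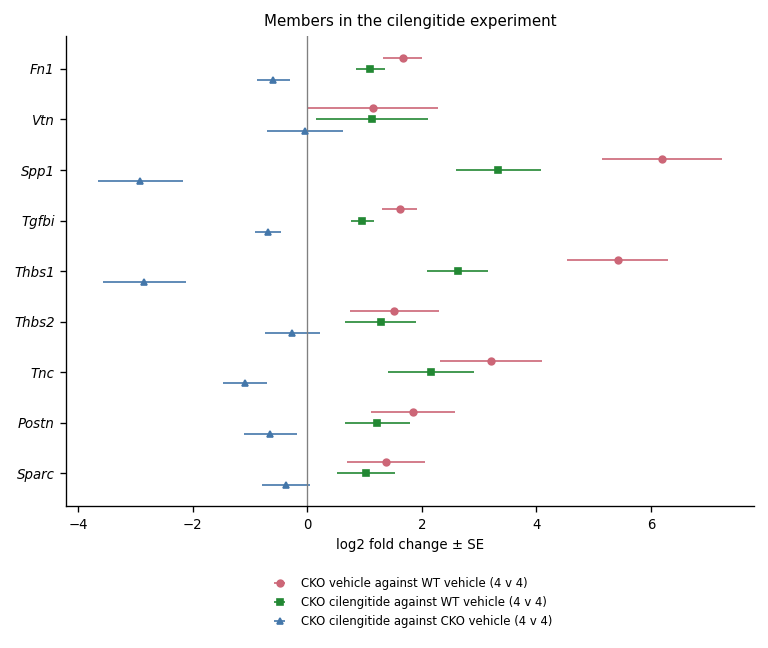
Log2 fold change with SE of each gene for CKO vehicle against WT vehicle (circles), CKO cilengitide against WT vehicle (squares) and CKO cilengitide against CKO vehicle (triangles), 4 wounds a group. Spp1 and Thbs1 have the largest estimates in both directions, 6.20 and 5.42 for CKO vehicle and -2.92 and -2.85 for cilengitide against CKO vehicle.

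Related genes moved in the same experiment. In CKO vehicle wounds 7 of 17 tested matricellular genes outside the 9 rose, led by Ctgf (3.14 ± 0.45, adjusted p = 0.00161), Tnn (3.03 ± 0.89, adjusted p = 0.0247) and Cyr61 (2.90 ± 0.62, adjusted p = 0.00718). Of 12 other αv ligands tested 2 rose, Dmp1, which stayed under 1 CPM in both groups (at most 0.107 in WT and 0.615 in CKO wounds), and Tgfb1 (2.11 ± 0.34, adjusted p = 0.00234), and L1cam fell (-1.33, adjusted p = 0.00645). Of 16 receptors 10 rose, led by the thrombospondin receptor Cd36 (3.03 ± 0.35, adjusted p = 0.000906), Itga5 (2.50 ± 0.39, adjusted p = 0.00212) and Itgb3 (2.37 ± 0.34, adjusted p = 0.00169), and Itga3, a laminin receptor subunit of keratinocytes, fell (-1.80, adjusted p = 0.0309). Under cilengitide against CKO vehicle 4 of 16 receptors fell, and the largest changes were those of Cd36 (-2.02 ± 0.29, adjusted p = 0.00545), Cd47, the other thrombospondin receptor (-1.47 ± 0.30, adjusted p = 0.0139), and Itgb3 (-1.09 ± 0.27, adjusted p = 0.0258). Tgfb1 (-1.22, adjusted p = 0.0134) and Cyr61 (-1.21, adjusted p = 0.0101) fell as well. Against WT vehicle, treated wounds kept 4 receptors called higher, among them Itga5 (1.48), Itgb3 (1.31) and Itgb1 (1.26), and Ctgf (2.10).

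Cell type markers moved with these results too. In CKO vehicle wounds all 8 macrophage and monocyte markers were called higher (Cd14 most, 6.92), as were 3 of 4 neutrophil (Csf3r, 5.82), 3 of 8 fibroblast (Pdgfra, 2.99), 3 of 4 myofibroblast and smooth muscle (Cnn1, 5.19), 2 of 4 endothelial (Pecam1, 1.95), 2 of 3 tested platelet markers (Ppbp, 5.53) and the 1 tested hepatocyte marker, Alb (3.97), while 3 of 8 keratinocyte markers were lower (Krt10, -8.39). No skeletal muscle or adipocyte marker tested was called. The summed macrophage markers were 332.7 to 1123 CPM in WT vehicle, 4159 to 10700 in CKO vehicle and 1604 to 2497 in CKO cilengitide wounds. The keratinocyte markers were 71470 to 108300, 80.2 to 17780 and 43680 to 81680 CPM in the same order, and the platelet markers 10.8 to 20.5, 85.8 to 463.1 and 29.5 to 74.2. Under cilengitide against CKO vehicle 5 of 8 macrophage markers (Itgam, -2.71), 1 of 4 neutrophil (Cxcr2, -2.69), 1 of 4 myofibroblast (Cnn1, -1.27), 1 of 3 platelet markers (Pf4, -2.04) and Alb (-1.73) fell and 2 of 8 keratinocyte markers rose (Krt10, 6.58), and no fibroblast or endothelial marker was called. The part of these lists in the Spp1 and Thbs1 values was not tested.

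Across wounds, the 9 genes formed patterns, some of which both tables share. Log2 CPM was correlated over the 23 wounds of the first table and over the 12 wounds of the second. In the first, the mean of each library set was subtracted beforehand. Points share groups, so the values are descriptions only. Postn, Thbs2 and Sparc followed each other with Pearson r of 0.948 to 0.980 among the first 23 wounds and 0.965 to 0.985 among the other 12. Spp1 and Thbs1 had r of 0.868 and 0.990, Tnc and Thbs1 0.948 and 0.851, and Thbs1 and Thbs2, which are paralogs, 0.733 and 0.551. Some pairs differed between the tables, such as Fn1 with Tgfbi (0.459 and 0.932) and Fn1 with Spp1 (0.456 and 0.846). Vtn, at a few CPM or less in most wounds, had the weakest best match of the 9, with r of 0.309 to 0.661 and 0.398 to 0.815. Among the first 23 wounds Tgfbi had lower r with Fn1, Postn, Thbs2 and Sparc (0.422 to 0.502) than Vtn had (0.591 to 0.661). Tgfbi was close to Spp1, Thbs1 and Tnc (0.719 to 0.788 and 0.936 to 0.952) and less so to Postn (0.502 and 0.798). Among all genes outside the 9 with a mean of at least 5 CPM in both tables, the one most like Tnc was Tnn (lower of the 2 r values 0.970), followed by Chsy1 (0.963) and Wisp1 (0.960). Postn was most like Col5a2 (0.980), Lum (0.973) and Cdh11 (0.965), Thbs2 most like Col1a2 and Aebp1 (0.976 each) and Col5a2 (0.967), and Sparc most like Rcn3 (0.983), Fkbp14 (0.980) and Pcolce (0.978). Spp1 was most like Plaur (0.939), Ppp1r18 (0.932) and Entpd1 (0.930), and Thbs1 most like Tnfrsf23 (0.950), Picalm (0.946) and the fibronectin receptor subunit Itga5 (0.943). For Fn1 these genes were Col5a3 (0.954), Sulf1 (0.931) and Nid1 (0.929), for Tgfbi Igf2bp2 (0.918), Mmp13 (0.908) and H13 (0.896), and for Vtn Naalad2 (0.842), Hic1 (0.829) and Mxra7 (0.826).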

How the data were processed

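RNA of wound punches was sequenced from TruSeq stranded libraries. Per the labels, reads were aligned with HISAT2 to mm9, and the methods of the study state that the authors counted reads over RefSeq exons with SeqMonk. Whether this also holds for the cilengitide libraries is not given in the sources used here. The authors deposited 2 tables of raw counts, 1 column for each of the 35 wounds. Of the 29082 rows of the first table, 30 named no gene (0.0492% of its counts) and were left out. Symbols with several RefSeq rows were kept as the row with the largest total. Postn has 3 rows and Spp1 has 5 with nearly equal counts. Symbols that are bare numbers, 26 in each, were kept.

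Each pair of groups was fitted alone with edgeR 4.0.16 in R 4.3.3 (TMM scaling, genes kept by filterByExpr at 10 counts, quasi-likelihood test with robust dispersions, Benjamini-Hochberg adjustment over all genes tested). Genes at an adjusted p under 0.05 and at least 2-fold were called. Fold changes are log2 with SE. Alternatives were DESeq2 1.42.0, other scaling, no filter, a joint fit, a 3-fold limit, summed rows, library sets, a replicate block and leaving out each library. On counts simulated for CKO against WT at day 14 (14086 genes tested, 194 of 200 changed genes among them), edgeR called 56% of the changed genes and 3 others. The same step called 30.5% for CKO against WT at day 19 (14929 genes), 41% for CKO+fibro against CKO (15421 genes) and 49.5% for CKO against WT under vehicle (15237 genes). The changed genes were given a log2 fold change of 2, up or down, which is larger than the 2-fold limit. No library sets were simulated, so these shares do not hold for smaller changes or for the sets. Letters of replicates were taken to pair wounds where every same-letter correlation of deviations was over 0.1. This held only for CKO+fibro against WT at day 14 (0.157 to 0.485, 3 pairs, 2 of 3 best with their own letter). The rule draws on the same data as the fits, and the sample titles name no pairs, so it does not show that wounds were paired. Library sets come from the largest step between libraries in log2 CPM of GC-rich minus GC-poor genes, with 97.8% of genes at 5 CPM or more matched to a transcript.

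The members and gene lists were chosen with earlier results of these data known. All members are named in every comparison. Of the lists of related genes up to 3 called genes in each direction with the largest change are named, of each marker list the called marker with the largest change. The 3 genes most like a member are those with the highest lower value of the 2 correlations. Ratios were added later. Totals of 15043531 to 68266808 counts limit the lowest gene, Vtn, most. Protein sequences were not used here.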

Additional observations from a re-analysis of the deposited data

How the results depend on the processing

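With CKO against WT at day 14, 4 genes were called, 6 with DESeq2, with all groups in 1 fit or with the set as covariate, 3 within either set, 2 with a 3-fold limit and 2 to 4 on leaving out 1 library. At day 19, 0 were called with edgeR, 3 with DESeq2 and 0 to 2 without 1 wound. For CKO+fibro against WT, 0 were called, 1 with DESeq2 or scaling by library size only, 2 with all groups in 1 fit, 7 with the set as covariate, 6 within the upper set and 0 to 1 without 1 wound (1 without WT g). Of all genes, DESeq2 called 5.03% higher and the upper-set fit 19.8%. WT wounds between days had 4 calls within the upper set. CKO wounds between days had 1 lower call with DESeq2, 0 within the upper set and 0 to 1 without 1 wound. Under vehicle 5 were called, 7 with DESeq2, 6 with all groups in 1 fit and 5 to 6 without 1 wound, under cilengitide against CKO vehicle 0 to 3 lower (3 with DESeq2), and against WT vehicle 0 to 5 higher, or 1 with all groups in 1 fit. Shares over all genes are given for some of these fits only. A count without its share shows how the calls moved and says nothing of the members against other genes.

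In fits with a replicate block (the letter), CKO+fibro against CKO had 2 lower calls (Postn at -2.40 and Thbs2 at -1.72), all of lower-set against upper-set wounds, and CKO+fibro against WT 2 higher and 1 lower. No share over all genes is given for the block fit of CKO+fibro against CKO. The block left 4 calls at day 14 and 0 at day 19. Letters did not pair the wounds at day 14 (mean correlation 0.153, from -0.44 to 0.499, 3 of 7 best with their own letter), at day 19 (-0.38) or for CKO+fibro against CKO (0.089). Wounds of the cilengitide experiment were numbered within groups only, so no block was fitted there.

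Directions turned in these estimates, none of them called in the edgeR test over all libraries. For CKO+fibro against CKO, with the set as covariate and within the upper set, Fn1 was 0.062 and 0.12, Spp1 0.10 and 0.15, Thbs1 0.15 and 0.19 and Tgfbi -0.14 and -0.089, and Thbs2 was 0.008 within the upper set. For CKO+fibro against WT, Postn was 2.30 and 2.28 and Thbs2 2.72 and 2.70, all 4 called higher although the block called Postn lower, and Sparc was -0.52 with the block. For WT between days, within the upper set, Spp1 was 1.62, Postn 2.42 and Thbs1 1.88, of which Thbs1 was called. Thbs1 was 0.26 by library size only, and Tgfbi 0.005 with DESeq2, 0.005 with RLE factors and 0.29 by library size only. For CKO between days, within the upper set, Postn was 1.49 and Tgfbi -0.093. The difference of genotype effects between days was -0.058 for Sparc with the set as covariate. The cause was not tested. Without 1 wound, estimates ran from -0.092 to 0.18 for Tgfbi in CKO+fibro against CKO, from -0.43 to 0.13 for Thbs2 and -0.039 to 0.36 for Sparc in CKO+fibro against WT. In WT between days they ran from -0.51 to 0.86 for Tnc, -0.55 to 0.35 for Thbs1, -0.45 to 1.02 for Thbs2, -0.33 to 0.58 for Sparc and -0.65 to 0.32 for Tgfbi. In CKO between days they ran from -0.003 to 0.55 for Thbs1 and -0.11 to 0.39 for Tgfbi. Under cilengitide against CKO vehicle they ran from -0.36 to 0.74 for Vtn and -0.55 to 0.068 for Thbs2. Vtn, at a few CPM or less in most wounds, is the member that depth limits.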
